A study of Mus musculus with 8 samples.

Results

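Cholesterol crystals (CC) were given to macrophages isolated from normal mouse livers, and the genes whose RNA level was higher or lower than with vehicle (Veh) are described here. The comparison uses 4 of the 8 RNA-seq libraries of the study, 2 with CC and 2 with Veh, and 13870 genes of the 55401 in the table, namely those with at least 0.5 CPM in at least 2 of these 4 libraries. CPM are the counts of a gene per 1000000 counts of the library, here scaled by the TMM method. The macrophages of all 4 libraries came from wild-type C57BL/6J mice on a standard diet, were purified from liver by magnetic separation with antibodies to F4/80, and were kept on collagen-coated plates in RPMI with 10% FBS. CC was used at 500 µg/ml for 24 hours. The other 4 libraries, 2 with CC and 2 with Veh, hold macrophages from livers that became steatotic on a Western diet in MC4R-KO mice, and entered the fit for the estimate of spread and 1 closing comparison. Each group has 2 libraries, the labels do not say whether they came from separate animals, and p-values therefore measure only the spread between these libraries.

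Macrophages that engulf crystals or lipid debris take them into lysosomes, acidic compartments whose hydrolases free cholesterol and whose acidity is kept by a proton pump, the vacuolar ATPase. Free cholesterol that reaches the endoplasmic reticulum holds back the transcription factor SREBP2, which drives sterol synthesis and uptake, while oxidized sterols activate LXR, which drives sterol export. Kupffer cells are the macrophages resident in liver, known for clearing particles and making complement, and scar-associated or lipid-associated macrophages are a state described in diseased liver, marked by genes such as *Spp1*, *Gpnmb* and *Cd9*.

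The libraries held 58668655 to 70598319 counts, so that 3 counts, the floor used here for counting error alone, correspond to 0.0425 to 0.0511 CPM. Replicates of a group correlated at 0.985 (Veh) and 0.983 (CC) across genes, which share a library and are not independent. Among the 6799 genes with a mean above 20 CPM, 69 differed over 2-fold between the Veh replicates and 72 between the CC replicates. *Mc4r*, which the knockout targets, was at 0 counts in all 4 of these libraries and at 22 to 72 counts in those of the other label. The counts with that other label are opposite to it, if the targeted allele makes no RNA that is counted. What gives these counts was not tested, and the libraries are called by their labels here. All 10 general macrophage markers were measured, among them *Cd68*, a lysosomal glycoprotein of macrophages, at 3567 and 3387 CPM with Veh and 3624 and 3619.5 CPM with CC, and *Adgre1*, which encodes F4/80, at 1028 and 1054 CPM with Veh and 813 and 823 CPM with CC.

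With CC, 1018 genes rose (7.34% of those tested) and 810 fell (5.84%) at an adjusted p under 0.05, by edgeR's quasi-likelihood test with Benjamini-Hochberg adjustment over all 13870 genes. Every adjusted p below is from this test and is named as edgeR adjusted p. Of these, 167 rose over 2-fold (1.2%) and 103 fell over 2-fold (0.743%). The shares of 7.34% and 5.84% are to be read beside the counts of each list below, and some genes stand in more than 1 list. The median log2 fold change of all tested genes was 0.0059. With library size alone in place of TMM, which moved this median to -0.041, 821 genes rose and 1137 fell, so the share of rises among called genes went from 55.7% to 41.9%. Without the first or second Veh library, 636 and 770 genes rose and 444 and 505 fell, and without the first or second CC library, 576 and 595 rose and 455 and 504 fell. An exact permutation test of 1 gene, with 2 libraries against 2, cannot give a two-sided p under 0.333. Of the 18 counts of 1 or 2 genes that rose or fell in a list below, 15 moved by over 1.5 times without some single library.

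**Figure D1:**
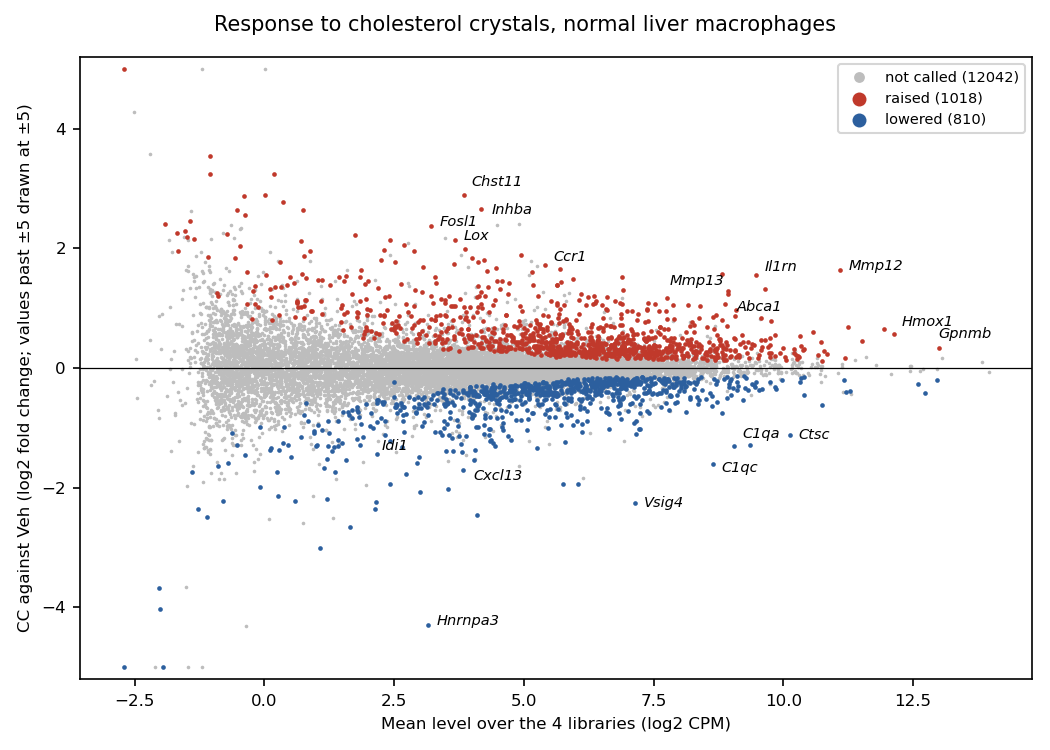
Log2 fold change of CC against Veh (y axis) against the mean level over the 4 libraries in log2 CPM (x axis), 1 point per tested gene. The 1018 raised genes are red, the 810 lowered genes blue and the others grey, and fold changes past 5 in size are drawn at 5. *Chst11*, *Inhba* and *Mmp12* stand out among the rises and *Hnrnpa3*, *Vsig4* and *C1qc* among the falls.

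The largest rises among called genes with a mean log2 CPM above 3 were those of *Chst11*, *Inhba* and *Fosl1*. *Chst11*, a sulfotransferase that modifies chondroitin, was at 4.63 and 5.86 CPM with Veh and 40.0 and 38 CPM with CC. Both CC libraries lay far above both Veh libraries, a 7.45-fold rise (log2 fold change 2.90 ± 0.13 (SE), edgeR adjusted p = 3.02e-05). *Inhba*, which encodes the subunit of activin A, was at 6.32 and 8.15 CPM with Veh and 47.2 and 43.8 CPM with CC, a 6.29-fold rise (log2 fold change 2.65 ± 0.23 (SE), edgeR adjusted p = 0.00189). *Fosl1*, an AP-1 transcription factor of the FOS family, was at 3.83 and 4.35 CPM with Veh and 22.6 and 19.7 CPM with CC and rose 5.18-fold (log2 fold change 2.37 ± 0.13 (SE), edgeR adjusted p = 5.7e-05). The groups were again clearly apart for both genes. *Lox*, the enzyme that crosslinks collagen and elastin, was at 5.31 and 6.87 CPM with Veh and 26.3 and 27.2 CPM with CC and rose 4.40-fold (log2 fold change 2.14 ± 0.16 (SE), edgeR adjusted p = 0.000215). *Ccr1*, a chemokine receptor, was at 24.3 and 22.6 CPM with Veh and 79.3 and 74.8 CPM with CC, and its replicates were close together (log2 fold change 1.72 ± 0.068 (SE), edgeR adjusted p = 2.78e-05). *Serpinb9b*, a serine protease inhibitor with near relatives in the mouse genome, rose by 1.99 on the log2 scale. *Dcbld2*, a membrane receptor, rose by 1.88, *Pgf*, placental growth factor, by 1.84, and *Tcim* by 1.73. *Dcbld2* missed the threshold without the first Veh library (edgeR adjusted p = 0.0561).

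Among low genes, with a mean under 8 CPM, the largest rises were those of *Samd11*, *Il1f9*, *Gm19410*, *Dcstamp*, *Bpifc* and *Ccl22*, with log2 fold changes of 3.55, 3.25, 3.24, 2.90, 2.88 and 2.78 in this order. *Il1f9*, an IL-1 family cytokine also named IL-36 gamma, was at 0.165 and 0.615 CPM with Veh and 3.62 and 3.74 CPM with CC. *Samd11* was at 0.0823 and 0.176 CPM with Veh and 1.63 and 1.40 CPM with CC, so that its Veh level was close to the floor. *Samd11* and *Dcstamp* passed the filter of 0.5 CPM only through the CC libraries, where they were high. Their place among the largest rises therefore follows in part from the filter. The CC libraries were above the Veh libraries for all low genes named here, which was a condition of their choice. The calls of *Samd11*, *Il1f9*, *Gm19410* and *Ccl22* were lost without 1 or another library, up to an edgeR adjusted p of 0.128.

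Among the largest falls of called genes at that level were those of *Vsig4*, *C1qc* and *Hpgd*. The same condition on the libraries was set for this choice. *Vsig4*, a receptor for complement C3b on resident macrophages, was at 324 and 293 CPM with Veh and 62.7 and 66.8 CPM with CC. Both CC libraries were far below both Veh libraries, a 4.76-fold fall (log2 fold change -2.25 ± 0.071 (SE), edgeR adjusted p = 1.5e-05). *C1qc* was at 719 and 674 CPM with Veh and 226 and 232 CPM with CC and fell 3.04-fold (log2 fold change -1.61 ± 0.071 (SE), edgeR adjusted p = 3.62e-05). *Hpgd*, the enzyme that breaks down prostaglandin E2, was at 136 and 122 CPM with Veh and 33.1 and 34.1 CPM with CC, 3.84-fold lower with CC (log2 fold change -1.94 ± 0.30 (SE), edgeR adjusted p = 0.0165). *Cxcl13*, a chemokine that attracts B cells, was at 24.0 and 27.2 CPM with Veh and 7.62 and 8.10 CPM with CC and fell 3.26-fold (log2 fold change -1.70 ± 0.18 (SE), edgeR adjusted p = 0.00143). *Cysltr1*, a receptor for cysteinyl leukotrienes, fell by 1.40 on the log2 scale, *Rnf150*, a RING finger gene, by 1.54, *Gpatch4* by 1.39 and *Nfix*, a transcription factor, by 1.39. *Ncapg2*, a condensin subunit, fell by 1.94, *Nxpe5* by 2.03 and *Lrrc8d*, a subunit of volume-regulated anion channels, by 2.46. The Veh libraries disagreed for *Lrrc8d* (28.8 and 53.7 CPM), and its call was lost under 6 of the 13 alternative settings, the 4 libraries alone among them. The calls of *Hpgd* and *Ncapg2* were lost without any 1 of the 4 libraries, up to edgeR adjusted p = 0.108 and 0.103. *Nxpe5* missed the threshold without the first Veh library or either CC library (edgeR adjusted p up to 0.0708), and *Nfix* without the first CC library or with the 4 libraries alone (up to 0.0696).

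*Hnrnpa3* is an RNA-binding protein gene with several processed copies in the genome. It had the largest fall among called genes with a mean log2 CPM above 3, under the same condition on the libraries. It was at 39.2 and 39.9 CPM with Veh and 2.16 and 1.84 CPM with CC (log2 fold change -4.30 ± 0.15 (SE), edgeR adjusted p = 1.5e-05). The 4 libraries labelled steatotic held 1.48 to 2.07 CPM with and without crystals, so that the Veh libraries labelled normal stood apart from the other 6. *Nek7*, a kinase of the inflammasome, was at 135 and 132 CPM with Veh and 37.8 and 36.6 CPM with CC and was not called (edgeR adjusted p = 0.116). In the libraries labelled steatotic it was at 161 and 160.6 CPM with Veh and at 138 and 43.4 CPM with CC, so that 1 CC library there held the low level too. *Tlr4*, the receptor for lipopolysaccharide, differed between the CC replicates themselves, at 236 and 234 CPM with Veh and 21.7 and 179.5 CPM with CC. What sets these levels was not tested. Among low genes, *Ramp2* fell by 3.01 on the log2 scale, *Hdac9* by 2.66, *BC064078* by 2.48, *Nxpe1-ps* by 2.36 and *Immp2l* by 2.35. *Gm14440* had 143 and 170 counts with Veh and 0 in both CC libraries, which against a floor of 3 counts per CC library makes it at least 44.9-fold lower. If a fragment gives 4 counts, a floor of 3 fragments lowers this bound to 11.2-fold. *Gm14440* passed the filter of 0.5 CPM only through the Veh libraries, where it was high. In the 4 libraries labelled steatotic it was at 0 to 0.206 CPM with and without crystals, so that here too the Veh libraries labelled normal stood apart. The call of *Gm14440* was lost under 7 alternatives, among them each omission of 1 library (edgeR adjusted p up to 0.127), and that of *Immp2l* under 5, with the replicate block and each such omission (up to 0.147).

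**Figure D2:**
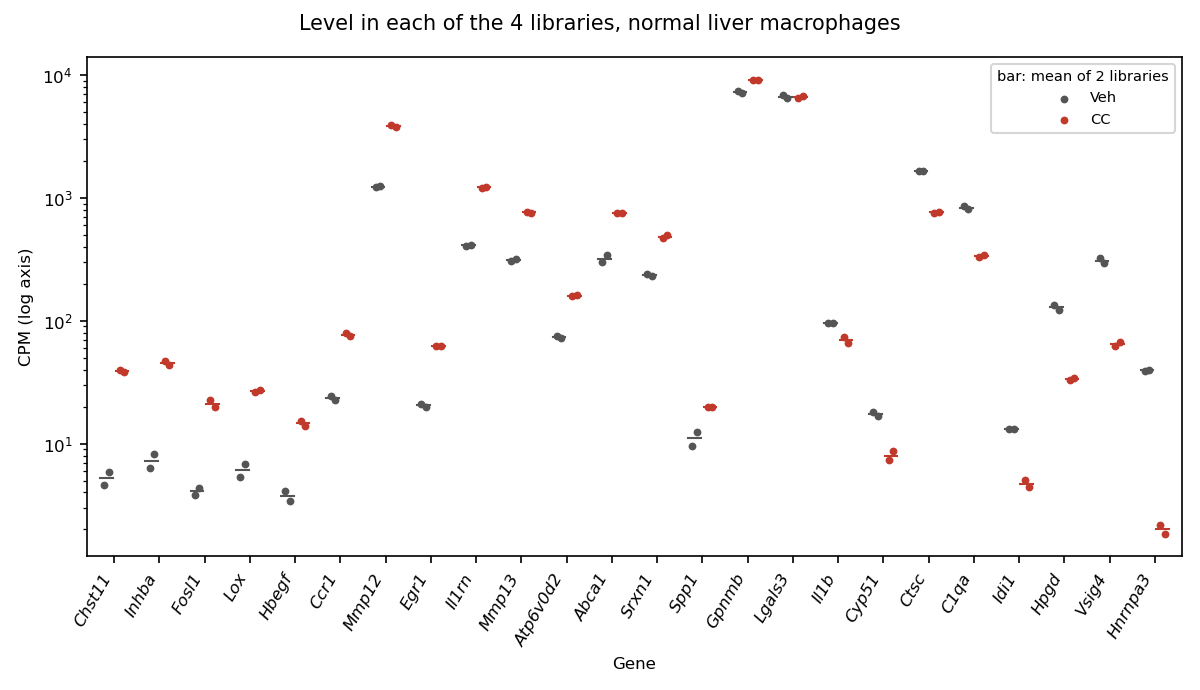
CPM on a log axis (y axis) of 24 genes (x axis) in each of the 4 libraries labelled normal. Grey points are the Veh libraries, red points the CC libraries and bars the means of 2. The CC points of *Chst11* to *Gpnmb* lie above their Veh points, those of *Lgals3* overlap them, and those of *Il1b* to *Hnrnpa3* lie below.

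Sterol synthesis and uptake genes were lower with CC. Of 26 tested, 10 fell and none rose, with 5.84% and 7.34% of all genes called in these directions, and their median log2 fold change was -0.36 beside 0.0059 over all genes. In 22 of the 26, both CC libraries were below both Veh libraries, which held for 28.1% of all genes. *Idi1*, an isomerase of the isoprenoid route, was at 13.2 and 13.1 CPM with Veh and 5.01 and 4.41 CPM with CC and fell 2.79-fold (log2 fold change -1.48 ± 0.15 (SE), edgeR adjusted p = 0.000747). Both CC libraries were well below both Veh libraries. *Cyp51* fell by 1.13 on the log2 scale, *Sqle* by 0.89, *Fdps* by 0.82, *Dhcr7* by 0.74 and *Mvk* by 0.74, all enzymes of the route to cholesterol. *Insig1*, which retains SREBP in the endoplasmic reticulum, fell by 0.71, *Hmgcs1*, the synthase of HMG-CoA, by 0.39 and *Msmo1*, a sterol oxidase, by 0.26. *Sqle* and *Hmgcs1* missed the threshold without the first Veh or the first CC library, *Mvk* without the first Veh library and *Msmo1* without any 1 of the 4. Under the 13 alternatives, between 6 (without the first Veh library) and 11 of the list fell and none rose. The promoter of *Hmgcs1* was the only one of the 19 available for the list (RefSeq, build GRCm38.p6, 250 bases before to 50 after the gene start) with the sterol regulatory letters TCACNCCAC on either strand, which 1.34% of all 9794 promoters held. It is shown for the member of the list that holds the motif, from chr13:119690184-119690252 on the plus strand, with the match in capitals:
Hmgcs1: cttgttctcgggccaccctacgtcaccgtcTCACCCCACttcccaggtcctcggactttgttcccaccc

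LXR targets and efflux genes went both ways, 7 up and 6 down of 20 tested, with a median log2 fold change of 0.0056 that turned to -0.041 with library size alone. *Abca1*, which exports cholesterol to apolipoprotein A-I, was at 301 and 341 CPM with Veh and 760.3 and 748 CPM with CC and rose 2.35-fold (log2 fold change 1.23 ± 0.057 (SE), edgeR adjusted p = 3.61e-05). *Abcg1*, the exporter to HDL, was at 389 and 391 CPM with Veh and 763 and 768 CPM with CC, nearly identical within each group (log2 fold change 0.97 ± 0.039 (SE), edgeR adjusted p = 2.78e-05). *Scd1*, the desaturase of stearic acid, rose by 1.21 on the log2 scale, and *Mylip*, a ubiquitin ligase, by 0.70. *Arl4c* rose by 0.62, *Fasn*, fatty acid synthase, by 0.47 and *Srebf1*, the SREBP1 gene, by 0.25. *Nr1h3*, which encodes LXR alpha, fell from 159.9 and 169 CPM to 116 and 121 CPM (log2 fold change -0.47 ± 0.045 (SE), edgeR adjusted p = 0.000644). *Cyp27a1*, the sterol 27-hydroxylase, fell by 0.86, *Pltp*, phospholipid transfer protein, by 0.52 and *Smpdl3a* by 0.54. *Apoc2* fell by 0.41 and *Nceh1*, a neutral cholesteryl ester hydrolase, by 0.19. The calls of *Fasn*, *Srebf1* and *Apoc2* were lost without any 1 of 3 libraries, both Veh libraries among them. Of 20 lipid droplet and fatty acid genes, 6 rose and 3 fell (median 0.094). *Hilpda*, an inhibitor of triglyceride breakdown, was at 95.0 and 99.0 CPM with Veh and 189 and 187 CPM with CC (log2 fold change 0.96 ± 0.041 (SE), edgeR adjusted p = 2.78e-05), and *Pnpla2*, the triglyceride lipase that it inhibits, fell by 0.48. *Plin2*, the coat protein of lipid droplets, rose from 1709 and 1689.7 CPM to 1974 and 2040.5 CPM, a small difference beyond the replicate spread (log2 fold change 0.24 ± 0.032 (SE), edgeR adjusted p = 0.00283). *Angptl4*, a secreted inhibitor of lipoprotein lipase, fell by 1.12, while *Lpl*, lipoprotein lipase itself, rose by 0.46.

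Vacuolar ATPase subunits were higher with CC. Of 18, 9 rose and none fell, with a median of 0.20, and in 11 both CC libraries were above both Veh libraries, which held for 29.1% of all genes. None was below both, and the summed level of the list went from 5945 and 5781 CPM with Veh to 6764 and 6784 CPM with CC. *Atp6v0d2*, a subunit of the membrane sector found in osteoclasts and macrophages, was at 74.7 and 72.3 CPM with Veh and 158 and 162 CPM with CC, the largest rise of the list (log2 fold change 1.13 ± 0.064 (SE), edgeR adjusted p = 7.09e-05). *Atp6v1h* rose by 0.58, *Tcirg1*, the a3 subunit, by 0.43 and *Atp6v1e1* by 0.40. *Atp6v1a*, a catalytic subunit, rose from 1008 and 1002 CPM to 1095 and 1118 CPM, close to the threshold (log2 fold change 0.14 ± 0.036 (SE), edgeR adjusted p = 0.0471). This call of *Atp6v1a* was lost under 10 of the 13 alternatives. Between 6 and 10 subunits rose under the alternatives.

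Lysosomal hydrolases went both ways, 6 up and 10 down of 34 tested, with a median of -0.022. *Ctsc*, the protease that activates granule serine proteases, was at 1648 and 1673 CPM with Veh and 753 and 776 CPM with CC and fell 2.17-fold (log2 fold change -1.12 ± 0.086 (SE), edgeR adjusted p = 0.000556). *Ctsh* fell by 0.76 on the log2 scale, *Man2b1*, an alpha-mannosidase, by 0.60, *Lgmn*, legumain, by 0.38, *Ctss* by 0.26 and *Ctsd* by 0.20. *Ctsk*, the collagen-degrading cathepsin of osteoclasts, was at 8.69 and 7.98 CPM with Veh and 15.5 and 15.0 CPM with CC (log2 fold change 0.87 ± 0.084 (SE), edgeR adjusted p = 0.000635). *Lipa*, which frees cholesterol from its esters in the lysosome, rose by 0.12 and *Gaa*, acid alpha-glucosidase, by 0.21. *Lipa* missed the threshold under 9 alternatives and *Gaa* without the first Veh or either CC library. Without the first or second Veh library 2 and 3 hydrolases rose, and without either CC library 1, while between 9 and 11 fell under all alternatives. With library size alone 3 rose.

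Of 35 tested membrane, nutrient-sensing and autophagy genes of the lysosome, 11 rose and 2 fell (median 0.10), with 5 rises without either Veh library or the first CC library and 6 rises and 4 falls with library size alone. *Sqstm1*, the autophagy receptor p62, was at 1902 and 1921 CPM with Veh and 3023 and 3134 CPM with CC (log2 fold change 0.69 ± 0.033 (SE), edgeR adjusted p = 4.02e-05). *Gpnmb*, a transmembrane glycoprotein of the macrophage endolysosome, was at 7383 and 7131 CPM with Veh and 9193 and 9090.2 CPM with CC, higher in both CC libraries (log2 fold change 0.33 ± 0.034 (SE), edgeR adjusted p = 0.000816). *Fnip2* rose by 0.48 and *Rragd*, a Rag GTPase, by 0.50, and *Clcn7*, the lysosomal chloride-proton exchanger, by 0.36. *Calcoco1* fell by 0.41 and *Scarb2*, the receptor that delivers glucocerebrosidase, by 0.27. The calls of *Rragd* and *Scarb2* were lost without 1 library or another. *Tfe3*, a master transcription factor of lysosomal genes, was at 172 and 178 CPM with Veh and 177 and 182 CPM with CC (log2 fold change 0.035 ± 0.039 (SE), edgeR adjusted p = 0.635), and *Tfeb*, its relative, was at 53.8 and 53.9 CPM with Veh and 54.3 and 48.5 CPM with CC (log2 fold change -0.067 ± 0.064 (SE), edgeR adjusted p = 0.575). Neither was called, and both signs turned under 1 alternative. The E-box letters CACGTG, to which TFE3 and TFEB are known to bind, stood in 8 of the 32 available promoters of the list (25%), in 4 of 12 of the vacuolar ATPase (33.3%), in 130 of 770 of all raised genes (16.9%), in 13 of 120 of those raised over 2-fold (10.8%), in 57 of 640 of the lowered ones (8.91%) and in 12% of all. Of the holders, 3 of the 8 in this list and 2 of the 4 vacuolar ATPase genes were called, all as raised. With or without the letters, 11 of 35 and 9 of 18 tested members of these lists rose. Over all tested genes, 130 of 1176 holders rose and 57 fell. The cholesterol list (26.3%) and the immediate-early list (25%) held the letters as often, and none of these shares was tested. The windows of *Rragc*, *Fnip1* and *Atp6v1a* are shown as members called as raised, each of which missed the threshold without either Veh library or the first CC library, with the match in capitals, from chr4:123917291-123917356 (plus), chr11:54438074-54438139 (plus) and chr16:44139355-44139420 (minus):
Rragc: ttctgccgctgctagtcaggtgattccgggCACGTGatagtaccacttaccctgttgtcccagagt
Fnip1: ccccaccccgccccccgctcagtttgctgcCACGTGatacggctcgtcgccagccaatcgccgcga
Atp6v1a: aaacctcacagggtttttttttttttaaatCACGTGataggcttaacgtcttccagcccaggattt

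**Figure D3:**
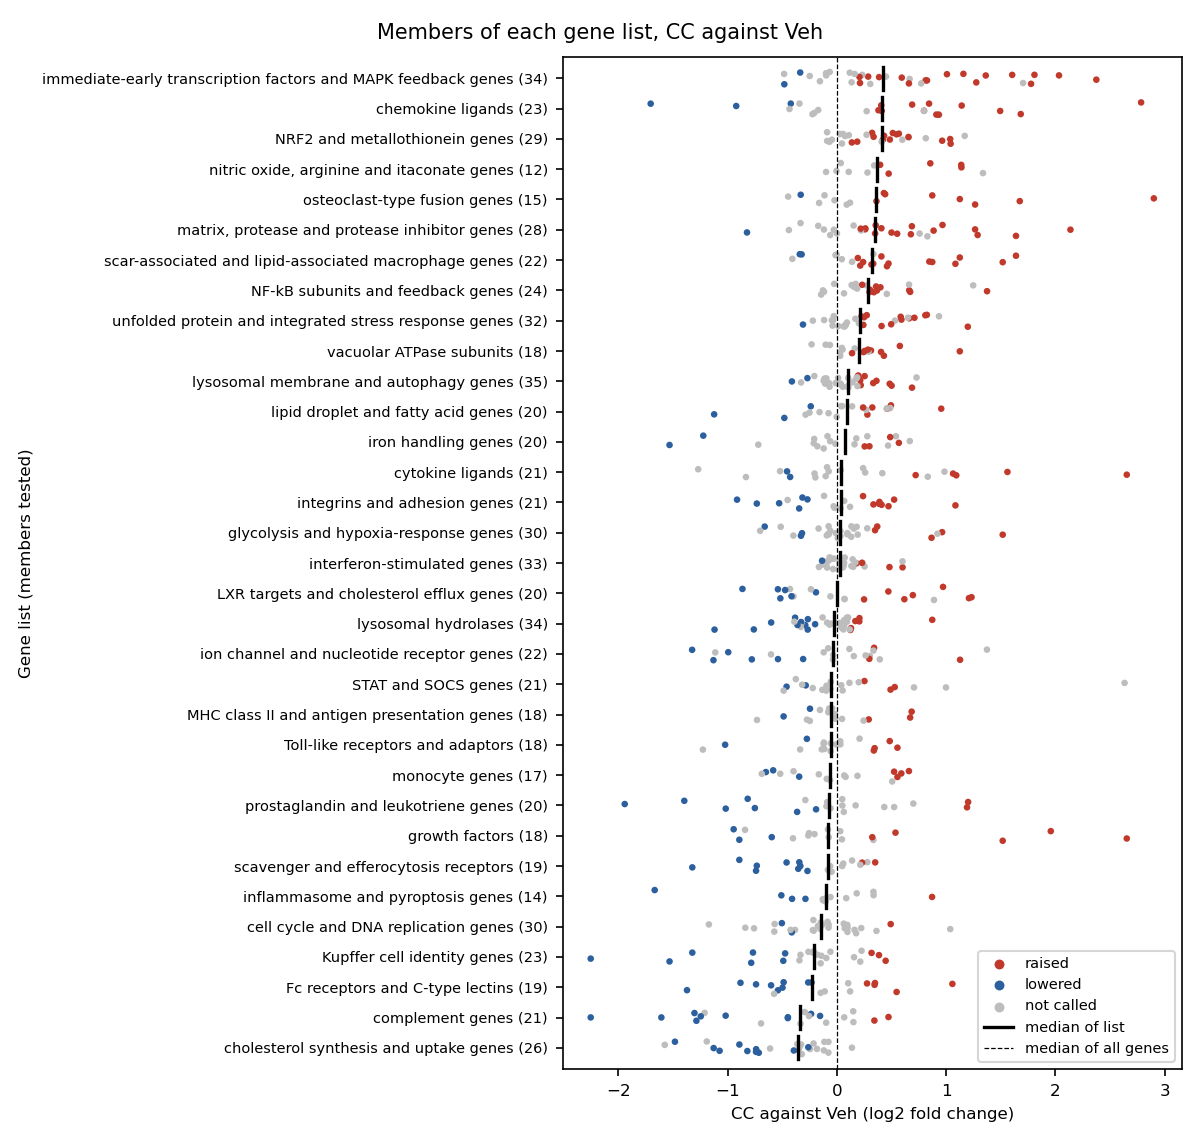
Log2 fold change of CC against Veh (x axis) for the tested members of 33 gene lists (y axis, number tested in brackets), ordered by median. Red points rose, blue points fell and grey points were not called, black bars are list medians, and the dashed line is the median of all genes. The medians run from -0.36 for cholesterol synthesis and uptake genes to 0.42 for immediate-early and MAPK feedback genes.

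General macrophage markers were lower with CC, 9 of 10 falling and none rising (median -0.45), and their summed level went from 17800 and 17260 CPM to 13140 and 13390 CPM. *Lyz2*, lysozyme, was at 7964 and 7666 CPM with Veh and 5764 and 5902 CPM with CC (log2 fold change -0.42 ± 0.075 (SE), edgeR adjusted p = 0.0147). *Csf1r*, the receptor for the macrophage growth factor CSF1, was at 1553 and 1586 CPM with Veh and 1131 and 1168 CPM with CC (log2 fold change -0.45 ± 0.067 (SE), edgeR adjusted p = 0.00542). Both fell, as did *Mertk*, a receptor for dead cells, by 0.46 on the log2 scale, *Aif1* by 0.68, *Adgre1* by 0.35 and *Fcgr1*, the high-affinity Fc receptor, by 0.26. *Lyz2* missed the threshold without any 1 of the 4 libraries (edgeR adjusted p up to 0.0886). *Cd68* was not called (log2 fold change 0.059 ± 0.037 (SE), edgeR adjusted p = 0.367). In bulk RNA, fewer cells of a type and less RNA per cell cannot be told apart.

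Of 23 tested Kupffer cell identity genes, 7 fell and 3 rose (median -0.21). Apart from *Vsig4*, the falls were those of *Cd163*, the receptor for haemoglobin and haptoglobin, at 5.06 and 4.98 CPM with Veh and 2.02 and 1.45 CPM with CC (log2 fold change -1.53 ± 0.23 (SE), edgeR adjusted p = 0.00494), and of *Timd4*, a phosphatidylserine receptor, at 10.8 and 9.16 CPM with Veh and 3.47 and 4.51 CPM with CC (log2 fold change -1.32 ± 0.15 (SE), edgeR adjusted p = 0.00141). *Cd207* fell by 0.78, *Clec4f*, a lectin of Kupffer cells, by 0.77, and *Id3*, a transcriptional regulator of Kupffer cells, by 0.49. *Cd5l* was at 1885 and 1860.5 CPM with Veh and 1609 and 1789 CPM with CC and *Marco*, a scavenger receptor, at 346 and 364 CPM with Veh and 391.8 and 432 CPM with CC, and neither was called. *Cd38* rose by 0.32, *Cdh5* by 0.45 and *Vcam1*, an adhesion molecule, by 0.39. The call of *Cd38* was lost without the first Veh or the second CC library. Of 17 monocyte genes, 4 rose and 3 fell: *Cd14*, the co-receptor for lipopolysaccharide, rose by 0.55, and *S100a4* fell by 0.65, while without either CC library 1 of these genes fell.

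Complement genes were lower, 10 of 21 falling and 2 rising (median -0.33), 6 of the falls over 2-fold (0.743% of all genes). Among the falls, *Vsig4* is also counted in the Kupffer cell list and *C1qa*, *C1qb* and *C1qc* among the macrophage markers. *C1qa* was at 856 and 816 CPM with Veh and 333 and 345 CPM with CC (log2 fold change -1.30 ± 0.054 (SE), edgeR adjusted p = 2.78e-05), and *C1qb* at 1052 and 998 CPM with Veh and 409.9 and 431 CPM with CC (log2 fold change -1.28 ± 0.063 (SE), edgeR adjusted p = 4.08e-05). The replicates of each lay close together and the groups were apart. *C4b* fell by 1.02, *Cfp*, properdin, by 0.45, *C5ar1*, a receptor for C5a, by 0.45, *C2* by 0.24 and *C3ar1* by 0.15. *C2* and *C3ar1* missed the threshold without any 1 library. *C3*, the central component, was at 214 and 233 CPM with Veh and 282 and 286 CPM with CC and rose (log2 fold change 0.34 ± 0.051 (SE), edgeR adjusted p = 0.00455).

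Scavenger and efferocytosis receptors fell in 9 of 19 and rose in 2 (median -0.082), or in none without the first Veh or either CC library. *Mrc1*, the mannose receptor, was at 357 and 365 CPM with Veh and 219 and 214 CPM with CC (log2 fold change -0.74 ± 0.045 (SE), edgeR adjusted p = 9.67e-05). *Gas6*, the bridging ligand of the TAM receptors, was at 91.0 and 86.0 CPM with Veh and 48.4 and 47.0 CPM with CC (log2 fold change -0.89 ± 0.069 (SE), edgeR adjusted p = 0.000256). *Axl*, one of these receptors, fell by 0.35, *Itgb5* by 0.73 and *Scarb1*, an HDL receptor, by 0.33. Of 19 Fc receptors and C-type lectins, 9 fell and 5 rose (median -0.23), with 3 rises without the second CC library. *Clec4e*, the lectin Mincle, was at 38.3 and 37.8 CPM with Veh and 79.6 and 78.6 CPM with CC, with hardly any spread between replicates (log2 fold change 1.06 ± 0.046 (SE), edgeR adjusted p = 2.78e-05). Its relatives *Clec4d* and *Clec4n* rose by 0.35 and 0.35, whereas *Clec4a3*, an inhibitory lectin relative, fell by 0.88 and *Clec4a1* by 0.54. *Clec4n* missed the threshold without any 1 of the 4 libraries.

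Genes of scar-associated and lipid-associated macrophages rose in 14 of 22 and fell in 2 (median 0.32). *Mmp12*, macrophage elastase, was at 1226 and 1249 CPM with Veh and 3952 and 3758 CPM with CC and rose 3.12-fold (log2 fold change 1.64 ± 0.087 (SE), edgeR adjusted p = 0.000131). *Cd9*, a tetraspanin, was at 57.8 and 55.6 CPM with Veh and 124 and 117 CPM with CC (log2 fold change 1.09 ± 0.068 (SE), edgeR adjusted p = 0.000106). *Vegfa*, the vascular growth factor, was at 2.22 and 1.96 CPM with Veh and 6.14 and 5.84 CPM with CC (log2 fold change 1.52 ± 0.11 (SE), edgeR adjusted p = 0.000201). *Spp1*, which encodes osteopontin, was at 9.62 and 12.5 CPM with Veh and 19.8 and 19.9 CPM with CC, with both CC libraries above both Veh libraries (log2 fold change 0.85 ± 0.13 (SE), edgeR adjusted p = 0.008), and its call was lost without either CC library (edgeR adjusted p up to 0.0541). *Itgax*, which encodes CD11c, rose by 0.47 on the log2 scale (edgeR adjusted p = 0.0393), a call lost with library size alone or without any 1 library. *Trem2*, the lipid receptor, fell by 0.32 and *Tyrobp*, its signalling adaptor, by 0.34, and neither was called without the first Veh or the first CC library. *Lgals3*, galectin-3, was at 6844 and 6472 CPM with Veh and 6489 and 6717 CPM with CC, with overlapping groups (log2 fold change -0.012 ± 0.040 (SE), edgeR adjusted p = 0.89), and *Fabp4*, a fatty acid carrier, was at 4.51 and 4.11 CPM with Veh and 5.31 and 4.19 CPM with CC (log2 fold change 0.14 ± 0.13 (SE), edgeR adjusted p = 0.556).

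Of 15 tested osteoclast-type fusion genes, 8 rose and 1 fell (median 0.36). *Dcstamp*, a transmembrane protein needed for cell fusion, was at 0.247 and 0.483 CPM with Veh and 3.17 and 2.27 CPM with CC (log2 fold change 2.90 ± 0.40 (SE), edgeR adjusted p = 0.00377). *Car2*, carbonic anhydrase II, was at 12.2 and 12.6 CPM with Veh and 39.4 and 39.6 CPM with CC (log2 fold change 1.67 ± 0.060 (SE), edgeR adjusted p = 1.93e-05). *Mmp9*, a gelatinase, rose by 1.27 and *Src*, a tyrosine kinase, by 0.44. *Tnfrsf11a*, which encodes the receptor RANK, fell by 0.33.

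Matrix, protease and protease inhibitor genes rose in 16 of 28 and fell in 1 (median 0.35), and 4 rose over 2-fold (1.2% of all genes). Their summed level was 3952 and 4064 CPM with Veh and 7992 and 7717 CPM with CC, of which *Mmp12* made up the most. *Mmp13*, a collagenase, was at 309 and 318 CPM with Veh and 774 and 756 CPM with CC (log2 fold change 1.29 ± 0.036 (SE), edgeR adjusted p = 9.39e-06). *Plaur*, the urokinase receptor, rose by 0.97 on the log2 scale, and *Plau*, urokinase itself, was at 308 and 309 CPM with Veh and 579 and 561 CPM with CC (log2 fold change 0.89 ± 0.053 (SE), edgeR adjusted p = 9.28e-05). *Mmp8* rose by 0.69, *Mmp19* by 0.68, *Adam8*, a membrane metalloprotease, by 0.55 and *Mmp14* by 0.41. *Thbs1*, thrombospondin 1, rose by 0.36, and *Col4a1* and *Col4a2*, chains of basement membrane collagen, by 0.26 and 0.26. The calls of *Thbs1* and both collagen genes were lost without the first Veh or either CC library and with the 4 libraries alone. *Timp2*, an inhibitor of metalloproteases, was at 64.7 and 63.9 CPM with Veh and 37.0 and 35.7 CPM with CC and fell (log2 fold change -0.82 ± 0.050 (SE), edgeR adjusted p = 9.56e-05).

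The AP-1 letters TGANTCA, searched on both strands, stood in 5 of the 18 available promoters of the matrix list (27.8%), in 23 of 120 of the genes raised over 2-fold (19.2%), in 95 of 770 of all raised genes (12.3%), in 51 of 640 of the lowered ones (7.97%) and in 6.5% of all 9794. No test of these shares was made, and a match is a description of letters. Of the 5 holders in the matrix list, 4 rose and 1 was not called, beside 16 of 28 tested members of the list that rose. Over all tested genes, 95 of 637 holders rose and 51 fell. The windows of 3 raised proteases or receptors are shown with the match in capitals, from chr9:7347300-7347366, chr9:7272449-7272513 and chr7:24462384-24462450, all on the plus strand, with matches that start 44, 35 and 69 bases before the gene start:
Mmp12: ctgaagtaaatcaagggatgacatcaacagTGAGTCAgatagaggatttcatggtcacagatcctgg
Mmp13: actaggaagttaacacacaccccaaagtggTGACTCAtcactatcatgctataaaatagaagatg
Plaur: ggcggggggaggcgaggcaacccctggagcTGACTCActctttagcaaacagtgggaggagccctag

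Growth factors rose in 5 of 18 and fell in 3 (median -0.078). Beside *Inhba* and *Vegfa*, *Hbegf*, a ligand of the EGF receptor, was at 4.10 and 3.41 CPM with Veh and 15.2 and 14 CPM with CC and rose 3.88-fold (log2 fold change 1.96 ± 0.14 (SE), edgeR adjusted p = 0.000146). *Pdgfb*, a mitogen of stellate cells, was at 31.5 and 34.3 CPM with Veh and 50.0 and 45.4 CPM with CC (log2 fold change 0.54 ± 0.081 (SE), edgeR adjusted p = 0.00494), and *Pdgfa* rose by 0.32. *Pdgfc* was at 84.2 and 87.2 CPM with Veh and 43.2 and 45.9 CPM with CC and fell (log2 fold change -0.94 ± 0.063 (SE), edgeR adjusted p = 0.000124), as did *Hgf*, hepatocyte growth factor, by 0.60. *Pdgfa* missed the threshold without any 1 library, and *Hgf* without the second Veh or either CC library.

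Immediate-early transcription factors and feedback genes of the MAP kinase route rose in 17 of 34, 9 of them over 2-fold, and fell in 2 (median 0.42). *Egr1*, an early growth response factor, was at 21.2 and 19.8 CPM with Veh and 62.4 and 62.1 CPM with CC (log2 fold change 1.6 ± 0.067 (SE), edgeR adjusted p = 2.78e-05). *Dusp4* was at 9.90 and 10.2 CPM with Veh and 36.4 and 34.0 CPM with CC (log2 fold change 1.81 ± 0.11 (SE), edgeR adjusted p = 0.000106), and *Dusp5* at 8.76 and 10.0 CPM with Veh and 32.6 and 31.9 CPM with CC (log2 fold change 1.78 ± 0.12 (SE), edgeR adjusted p = 0.000118). Both encode phosphatases that act on nuclear ERK. *Dusp10* rose by 1.28, *Maff* by 1.16, *Dusp6* by 0.82, *Atf3*, a stress-induced factor, by 0.81 and *Jun* by 0.21. *Egr3* and *Fosb* were under 3 CPM in all 4 libraries and rose by 2.03 and 1.36. *Egr3* missed the threshold without either Veh library or the first CC library (edgeR adjusted p up to 0.0783), *Fosb* without any 1 library (up to 0.17) and *Jun* without the second Veh or either CC library. Of the 2 members that fell, *Maf*, a transcription factor of macrophages, did so by 0.48. No available promoter of this list held TGANTCA (0 of 24).

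NF-kB subunits and feedback genes rose in 10 of 24, with none lower (median 0.29). *Traf1*, a signalling adaptor, was at 12.3 and 9.50 CPM with Veh and 23.9 and 32.6 CPM with CC (log2 fold change 1.37 ± 0.26 (SE), edgeR adjusted p = 0.0237). *Cd40* rose by 0.67, *Cd83* by 0.66 and *Rel* by 0.40, and the 4 calls just named were each lost without some single library. The count of rises was 2 without the first Veh or the first CC library and 5 without the second CC library. *Tnfaip3*, the feedback inhibitor A20, was at 35.4 and 40.3 CPM with Veh and 88.8 and 90.9 CPM with CC and was not called (log2 fold change 1.25 ± 0.35 (SE), edgeR adjusted p = 0.0978), and with the 4 libraries alone its edgeR adjusted p was 0.000665. The estimate of spread shared with the libraries labelled steatotic, where *Tnfaip3* was at 232.5 and 112 CPM with CC, enters the first value.

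Chemokines rose in 12 of 23 and fell in 3 (median 0.41). *Cxcl2*, a ligand for neutrophils, was at 36.6 and 37.2 CPM with Veh and 109.8 and 98.3 CPM with CC (log2 fold change 1.49 ± 0.095 (SE), edgeR adjusted p = 0.00011). *Cxcl3* rose by 1.68 on the log2 scale and *Cxcl1* by 0.93, of the same family. *Ccl4* rose by 0.91, *Ccl3* by 0.84, *Ccl7* by 0.80, *Ccl2*, the main monocyte attractant, by 0.69 and *Ccl5* by 0.41. *Ccl6* was at 193 and 192 CPM with Veh and 104 and 98.9 CPM with CC and fell (log2 fold change -0.92 ± 0.051 (SE), edgeR adjusted p = 6.75e-05), and *Cxcl16* fell by 0.42.

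Of 21 cytokine ligands, 5 rose and 2 fell (median 0.036). The medians of this list and of the interferon, glycolysis and integrin lists turned negative with library size alone. *Il1rn*, the antagonist of the IL-1 receptor, was at 409.6 and 418 CPM with Veh and 1206 and 1234 CPM with CC and rose 2.95-fold (log2 fold change 1.56 ± 0.053 (SE), edgeR adjusted p = 1.5e-05). *Il1a* was at 76.4 and 81.2 CPM with Veh and 167 and 169 CPM with CC (log2 fold change 1.09 ± 0.065 (SE), edgeR adjusted p = 9.28e-05), whereas *Il1b* was at 96.7 and 96.4 CPM with Veh and 74.3 and 66.6 CPM with CC and fell (log2 fold change -0.46 ± 0.062 (SE), edgeR adjusted p = 0.00312). These IL-1 ligands moved in opposite directions in both CC libraries. *Gdf15*, a stress cytokine, rose by 1.06 and *Tnf* by 0.72, and *Il18* fell by 0.43. *Gdf15* missed the threshold without the first Veh library and *Il18* without either Veh or the first CC library. Of 14 inflammasome and pyroptosis genes, *Nlrp3*, the sensor, rose from 31.4 and 34.0 CPM to 61.7 and 58.0 CPM (log2 fold change 0.87 ± 0.11 (SE), edgeR adjusted p = 0.00241) and 4 fell (median -0.10; 1 without the first Veh or first CC library), among them *Nlrp1b* by 1.67 and *Pycard*, the adaptor ASC, by 0.51. *Pycard* was called neither without the first Veh nor without the first CC library.

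Innate sensing, interferon and antigen presentation genes held calls in both directions, some of them lost without 1 library. Over all genes 7.34% rose and 5.84% fell, and nothing particular to these lists is read from their small counts. Without the second Veh or either CC library 2 of these Toll-like receptor genes rose, without the first CC library 1 STAT or SOCS gene, without either second library 2 interferon-stimulated genes, and without the first Veh or either CC library 1 presentation gene. The falls also moved, to 1 Toll-like receptor gene without any 1 library, to 1 STAT or SOCS gene without either Veh or the first CC library, to no presentation gene without the first Veh or the first CC library and to no interferon-stimulated gene without the first Veh or either CC library. Of 18 Toll-like receptors and adaptors, 4 rose and 2 fell (median -0.057), and *Tlr8* was at 142 and 143 CPM with Veh and 66.2 and 73.8 CPM with CC (log2 fold change -1.02 ± 0.056 (SE), edgeR adjusted p = 6.56e-05). Of 21 STAT and SOCS genes, 3 rose and 2 fell (median -0.056), with *Socs3*, a feedback inhibitor of STAT3, at 92.3 and 98.5 CPM with Veh and 139.8 and 136 CPM with CC (log2 fold change 0.53 ± 0.048 (SE), edgeR adjusted p = 0.000494). Of 33 interferon-stimulated genes, 4 rose and 1 fell (median 0.029), and with library size alone 2 rose and 4 fell. *Rsad2*, viperin, was at 1221 and 1257 CPM with Veh and 1863 and 1896 CPM with CC (log2 fold change 0.60 ± 0.038 (SE), edgeR adjusted p = 0.000106). Of 18 MHC class II and presentation genes, 3 rose and 2 fell (median -0.056): *Cd86*, a costimulatory ligand, rose by 0.68, and *H2-DMa* fell by 0.49. The call of *H2-DMa* was lost without the first Veh or the first CC library.

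NRF2 and metallothionein genes rose in 14 of 29, with none lower (median 0.41), with 8 rises without either Veh library and 9 without either CC library. *Srxn1*, sulfiredoxin, was at 242 and 231 CPM with Veh and 469 and 502 CPM with CC (log2 fold change 1.04 ± 0.093 (SE), edgeR adjusted p = 0.000785). *Prdx1*, a peroxiredoxin, was at 3174 and 3113 CPM with Veh and 4927 and 4977 CPM with CC (log2 fold change 0.66 ± 0.031 (SE), edgeR adjusted p = 3.62e-05). *Hmox1*, heme oxygenase 1, was at 3670.4 and 3669 CPM with Veh and 5394 and 5482 CPM with CC (log2 fold change 0.57 ± 0.037 (SE), edgeR adjusted p = 0.000118). All CC libraries lay above the Veh libraries for these abundant genes. *Slc7a11*, the cystine carrier, rose by 1.04 on the log2 scale, *Nqo1*, a quinone reductase, by 0.96, *Mt2*, a metallothionein, by 0.55, *Cat*, catalase, by 0.43 and *Gclc*, the first enzyme of glutathione synthesis, by 0.42. *Nqo1* and *Mt2* missed the threshold without any 1 of the 4 libraries (edgeR adjusted p up to 0.0998 and 0.124). The antioxidant response letters TGACNNNGC stood in 10 of 25 available promoters (40%), beside 17.2% of all promoters, 22.6% of those of raised and 18.6% of those of lowered genes. Of these 10 holders 6 rose and none fell, beside 14 of 29 tested members of the list that rose. Over all tested genes, 174 of 1685 holders rose and 119 fell. The immediate-early list held these letters in 29.2%. The AP-1 letters can overlap them, as they do in both windows shown here, of raised members, from chr4:116685436-116685504 and chr8:94172509-94172577 on the plus strand. Capitals mark TGACNNNGC or its reverse complement:
Prdx1: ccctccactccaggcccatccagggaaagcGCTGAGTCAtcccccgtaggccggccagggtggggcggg
Mt2: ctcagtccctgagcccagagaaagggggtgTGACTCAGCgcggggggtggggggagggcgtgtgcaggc

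Unfolded protein and integrated stress response genes rose in 13 of 32, in 8 without any 1 of the 4 libraries, and fell in 1 (median 0.21), or in none without the first Veh or the first CC library and in 2 without the second Veh library. *Ddit3*, the transcription factor CHOP, was at 81.2 and 77.3 CPM with Veh and 131 and 128 CPM with CC (log2 fold change 0.71 ± 0.044 (SE), edgeR adjusted p = 9.71e-05). *Psat1*, of serine synthesis, rose by 1.20 with CC replicates apart (22.3 and 31.3 CPM), and its call was lost without either Veh library or without the second CC library. *Hspa1a* and *Hspa1b*, near-identical heat shock genes whose reads may be split by the counting, rose by 0.82 and 0.81. *Trib3*, a pseudokinase, rose by 0.58 and *Asns*, asparagine synthetase, by 0.59. Of 12 nitric oxide, arginine and itaconate genes, 5 rose and none fell (median 0.37). *Nos2*, inducible nitric oxide synthase, was at 7.39 and 7.63 CPM with Veh and 16.5 and 16.6 CPM with CC (log2 fold change 1.14 ± 0.077 (SE), edgeR adjusted p = 0.000131), and *Acod1*, which makes itaconate, was at 291 and 304 CPM with Veh and 539 and 538 CPM with CC (log2 fold change 0.86 ± 0.062 (SE), edgeR adjusted p = 0.000173). *Slc7a2*, an arginine carrier, rose by 1.14.

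Prostaglandin and leukotriene genes fell in 7 of 20 and rose in 2 (median -0.073), with 4 falls without the first Veh or the second CC library. The rises were those of *Ptgs2*, cyclooxygenase 2, at 11.5 and 11.1 CPM with Veh and 27.5 and 23.9 CPM with CC (log2 fold change 1.19 ± 0.099 (SE), edgeR adjusted p = 0.000344), and *Ptges*, prostaglandin E synthase, at 8.13 and 7.35 CPM with Veh and 18.3 and 17.3 CPM with CC (log2 fold change 1.20 ± 0.085 (SE), edgeR adjusted p = 0.000161). *Ptgs1*, cyclooxygenase 1, fell by 0.36 on the log2 scale, *Ptger4*, a receptor for prostaglandin E2, by 1.02, *Alox5ap*, which presents arachidonate for leukotriene synthesis, by 0.82 and *Hpgds* by 0.19. *Ptgs1* missed the threshold without any 1 library, and *Hpgds* without the first Veh or either CC library. Of 20 iron handling genes, 4 rose and 2 fell (median 0.074), and of 30 glycolysis and hypoxia-response genes, 5 rose and 3 fell (median 0.033). Over all genes 7.34% rose and 5.84% fell, and nothing particular to the iron and glycolysis lists is read from their small counts. Without either CC library 1 iron handling gene fell. In the glycolysis list 1 gene fell without either Veh library or the first CC library, and none without the second CC library, while with library size alone 5 rose and 5 fell. *Slc11a2*, the iron carrier DMT1, rose by 0.49. *Slc2a1*, the glucose carrier GLUT1, was at 71.3 and 68.1 CPM with Veh and 139 and 132 CPM with CC (log2 fold change 0.96 ± 0.068 (SE), edgeR adjusted p = 0.000155), whereas *Hk2*, hexokinase 2, fell by 0.32 and *Pdk1*, a kinase of pyruvate dehydrogenase, by 0.66. *Hk2* missed the threshold without any 1 library, and *Pdk1* without the second CC library.

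Of 22 ion channel and nucleotide receptor genes, 6 fell and 3 rose (median -0.035), with 1 rise without the second CC library. *P2ry13*, an ADP receptor, was at 36.6 and 39.9 CPM with Veh and 17.4 and 17.6 CPM with CC (log2 fold change -1.13 ± 0.096 (SE), edgeR adjusted p = 0.000389). *P2ry12* fell by 1.32 and *Kcnj10*, a potassium channel, by 0.99, while *P2rx7*, the ATP-gated channel, rose by 0.30 and *Piezo1*, a mechanosensitive channel, by 0.34. The calls of *P2ry12* and *Piezo1* were lost without the first Veh or the first CC library. *Kcnn4*, a calcium-activated potassium channel, was at 1.25 and 1.68 CPM with Veh and 1.71 and 1.98 CPM with CC and was not called (log2 fold change 0.33 ± 0.16 (SE), edgeR adjusted p = 0.236). Integrins and adhesion genes rose in 8 of 21 and fell in 6 (median 0.035), with *Itga5*, of the fibronectin receptor, up by 0.39 and *Itga4* down (-0.91). Of 30 cell cycle genes, 1 rose and 2 fell (median -0.14), beside 7.34% and 5.84% of all genes. *Ccnd2*, a cyclin, rose by 0.49, and *Ccnd3*, another cyclin, and *Mcm6*, a helicase subunit, fell by 0.50 and 0.41. Without the first Veh or the first CC library none of these cell cycle genes was called, and without the second CC library *Ccnd2* alone was (edgeR adjusted p up to 0.11 for the lost calls).

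Markers of other liver and blood cells were low. The summed level of 13 tested hepatocyte markers was 180 and 172 CPM with Veh and 143.5 and 161 CPM with CC, with *Alb*, albumin, at 47.8 and 46.6 CPM with Veh and 41.0 and 47.8 CPM with CC. *Trf*, transferrin, was the 1 called, and it fell by 0.41 on the log2 scale. Its call was lost without any 1 of the 4 libraries (edgeR adjusted p up to 0.117). The 11 tested sinusoidal endothelial markers summed to 139.8 and 141 CPM with Veh and 152 and 155 CPM with CC, and 1 rose, *Oit3*, by 0.55. Of 12 stellate cell markers 4 were tested. *Dcn*, decorin, was at 2.07 and 2.0 CPM with Veh and 6.99 and 5.71 CPM with CC (log2 fold change 1.64 ± 0.16 (SE), edgeR adjusted p = 0.00109), *Hgf* fell as given above, and *Col1a1* had 12 and 20 counts with Veh and 4 and 4 with CC, and *Col3a1* 12 and 8 counts with Veh and 2 and 2 with CC. Of 10 neutrophil markers 3 were tested, *S100a8* and *Mmp8* rising by 0.67 and 0.69 and *Csf3r* falling by 0.38, and *S100a9*, *Ly6g*, *Retnlg* and *Ngp* were at 0 counts in all 4 libraries. The 7 tested dendritic cell markers summed to 11.9 and 12.4 CPM with Veh and 23.9 and 20.9 CPM with CC. *Fscn1*, an actin-bundling protein, rose by 0.80, and *Ccr7* was at 1.52 and 1.87 CPM with Veh and 5.84 and 4.71 CPM with CC without a call. For *Ccr7* the edgeR adjusted p was 0.101 over all 8 libraries and 0.00683 with the 4 libraries alone, and it also passed with DESeq2 and with counts divided by 4. *S100a8* missed the threshold without the first Veh or either CC library, *Fscn1* without the first Veh or the first CC library and *Oit3* without the first CC library. Of the T or NK cell markers 1 of 10 passed the filter, of the B cell markers 4 of 7, of the cholangiocyte markers 5 of 6, of the platelet markers 1 of 5 and of the erythroid markers 0 of 6, and among these *Spp1* was the only one called. The part of such cells in the changes above was not tested.

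The CC response differed between the libraries labelled steatotic and those labelled normal for 495 genes (3.57%, edgeR, interaction of CC and label, adjusted p under 0.05). Among the 168 genes chosen for naming by rule it differed for 51, of which 42 moved in the same direction and more with the label steatotic, 3 in the same direction and less, and 6 in opposite directions. The rule draws on the CC response with the label normal, which is part of this difference, so these counts are not a test. *Inhba* rose by 2.65 on the log2 scale with the label normal and by 5.02 with the label steatotic, a difference of 2.37 ± 0.31 (SE) with edgeR adjusted p = 0.0221. *Spp1* rose by 0.85 and by 2.61 (difference 1.77 ± 0.18 (SE), edgeR adjusted p = 0.00589). *Lgals3*, not called with the label normal, had 0.65 with the label steatotic (difference 0.66 ± 0.056 (SE), edgeR adjusted p = 0.00215). *Pgf* was an exception, with 1.84 against 0.56 (difference -1.28 ± 0.15 (SE), edgeR adjusted p = 0.00582). *Nfix* fell by 1.39 with the label normal and was at 1.36 with the label steatotic (difference 2.75 ± 0.33 (SE), edgeR adjusted p = 0.00823).

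**Figure D4:**
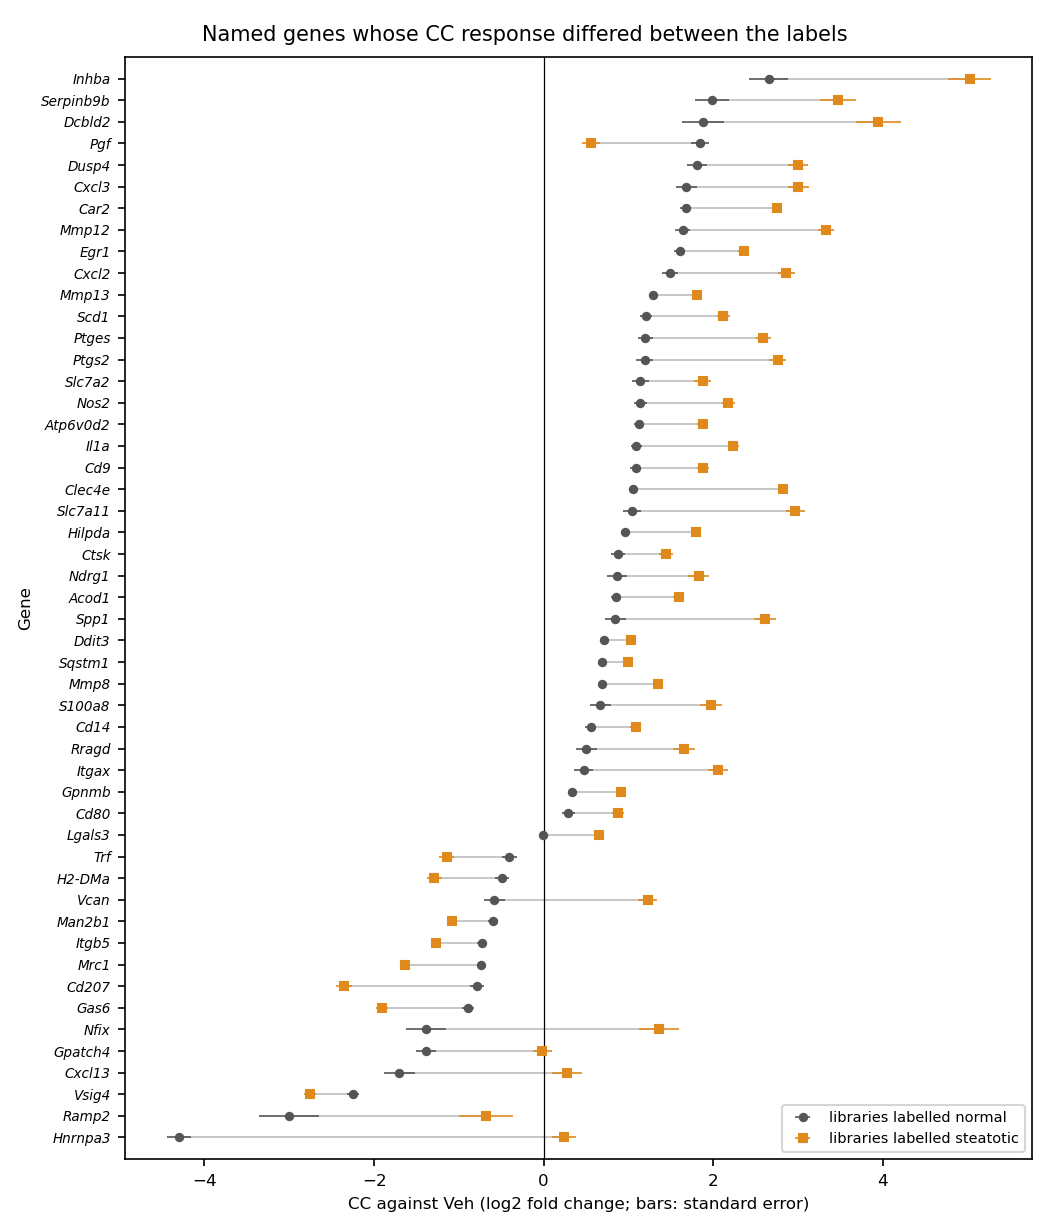
Log2 fold change of CC against Veh (x axis) of 50 of the 51 named genes (y axis) whose response differed between the labels, grey circles for libraries labelled normal and orange squares for those labelled steatotic, with bars for the standard error. Most squares lie farther from 0 than the circle of the same gene. *Pgf* is closer to 0 with the label steatotic, and *Nfix* and *Vcan* cross from below 0 to above it.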

How the data were processed

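Hepatic macrophage RNA was selected for poly(A) and sequenced with a directional kit. The authors used fastp for trimming, HISAT2 for alignment (build mm10) and StringTie for quantification, with versions not given in the sources used here. The deposited table holds estimated counts (also called expected counts), whole numbers that are not normalized, for 55401 genes and 8 libraries, with no replicates pooled. How coverage became counts and whether strand was used is not given in the sources used here. Small values are often multiples of 4, so a count need not be 1 fragment.

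The 4 libraries labelled normal were compared, CC against Veh, with edgeR 4.0.16 (R 4.3.3): TMM factors, glmQLFit with robust estimation and glmQLFTest on 4 group means over all 8 libraries, for the 13870 genes that reach 0.5 CPM in 2 or more of the 4 libraries, and Benjamini-Hochberg adjustment at 0.05. SE is the absolute log2 fold change divided by the square root of the F statistic. Of the tested genes, 13853 matched GENCODE M21 (GRCm38). In a test on simulated data for this contrast, 65 of 100 genes changed 2-fold and 100 of 100 changed 4-fold were called, with 11 unchanged genes, among 13870. The simulation gave every gene the same biological spread, whereas spread differed between genes in the data. These numbers are therefore not the power or the rate of false calls of the comparison.

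The named genes were the 12 highest and 12 lowest fold changes among called genes with a mean log2 CPM above 3, the 6 highest and 6 lowest at a mean of 0.5 to 8 CPM (for both, with the CC libraries on 1 side of the Veh libraries), up to 4 called members of each list with the largest change or, with fewer than 2 called, the 2 most abundant members, and the genes the study names for these cells, *Atp6v0d2*, *Itgax*, *Vegfa*, *Fabp4*, *Spp1*, *Kcnn4*, *Egr1*, *Gpnmb*, *Pdgfb*, *Lgals3*, *Tfe3* and *Tfeb*. The 3 genes nearest to the threshold on each side were not named, and predicted genes were only counted or given in 1 sentence. Other called list members, *Cd68*, *Cd5l*, *Marco*, *Nek7*, *Tlr4*, *Tnfaip3* and the marker genes at low counts were added after their values were seen. A few called genes are counted in their lists but not reported here. The members and lists were chosen with earlier results of these data known. The alternatives were DESeq2 1.42.0, its size factors in edgeR, library size alone, 3 other filters on low counts, the 4 libraries alone, counts divided by 4, the replicate number as a block, and each library left out in turn. Promoter sequences are those of RefSeq, build GRCm38.p6. Motifs were searched on both strands in 1 window per promoter listed, and 9794 of the tested symbols had one. Figures were drawn with matplotlib 3.10.9. Coordinates count from 1.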

Additional observations from a re-analysis of the deposited data

Results flagged for a closer look

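For 51 of the 168 named genes the test of the interaction of CC and label in edgeR gave an adjusted p under 0.05, as it did for 3.57% of all genes, and 50 of them are given here. The named genes were chosen in part by their response with the label normal, so their share cannot be set against that of all genes. The values in brackets are the response with the label steatotic minus that with the label normal, on the log2 scale, from 2 libraries per group. The labels also differ in genotype and diet, which cannot be told apart here.

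Among genes of matrix, growth factor and macrophage state, the rise was larger with the label steatotic for *Inhba* (2.37), *Serpinb9b* (1.48), *Dcbld2* (2.07), *Car2* (1.08), *Mmp12* (1.69), *Mmp13* (0.52), *Atp6v0d2* (0.75), *Cd9* (0.79), *Ctsk* (0.57), *Spp1* (1.77), *Mmp8* (0.67), *Itgax* (1.59) and *Gpnmb* (0.58). Among genes of signalling and inflammation, the rise was larger with the label steatotic for *Dusp4* (1.19), *Cxcl3* (1.32), *Egr1* (0.75), *Cxcl2* (1.37), *Ptges* (1.39), *Ptgs2* (1.57), *Il1a* (1.14), *Clec4e* (1.77), *S100a8* (1.30), *Cd14* (0.53) and *Cd80* (0.58). Among metabolic and stress genes, the rise was larger with the label steatotic for *Scd1* (0.91), *Slc7a2* (0.74), *Nos2* (1.04), *Slc7a11* (1.93), *Hilpda* (0.84), *Ndrg1* (0.96), *Acod1* (0.74), *Ddit3* (0.32), *Sqstm1* (0.31) and *Rragd* (1.16). The fall was larger with that label for *Trf* (-0.74), *H2-DMa* (-0.80), *Man2b1* (-0.48), *Itgb5* (-0.54), *Mrc1* (-0.89), *Cd207* (-1.57), *Gas6* (-1.01) and *Vsig4* (-0.50). The change went the same way but was smaller for *Pgf* (-1.28), *Gpatch4* (1.37) and *Ramp2* (2.32). The estimates had opposite signs for *Lgals3* (0.66), *Vcan* (1.81), *Nfix* (2.75), *Cxcl13* (1.98) and *Hnrnpa3* (4.55). The fall of *Vcan* with the label normal lost its call under 5 alternatives, the 4 libraries alone among them. For *Lgals3* and *Gpatch4* 1 of these estimates was close to 0, with -0.01 for *Lgals3* with the label normal and -0.01 for *Gpatch4* with the label steatotic.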

How the results depend on the processing

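Of the 13 alternatives, the 9 that keep all 4 libraries left the counts of called genes within 1.5 times the reported ones, from 821 rises and 1137 falls with library size alone to 1063 rises and 923 falls with DESeq2. Without 1 library the counts were 576 to 770 for rises and 444 to 505 for falls, and such a fit leaves a lone library assumed to vary like the other groups. With 880 rises and 697 falls, 150 and 94 of them over 2-fold, the replicate block lowered the counts. The deviations of libraries with the same number correlated at 0.0202 across genes, so the numbers were not taken to pair them. Of 154 named and called genes, 107 kept their call under every alternative that tested them, and the other 47 lost it at least once. The filter of 2 CPM tested 157 of the 168 named genes. Signs turned for uncalled genes only. With library size alone the log2 fold change of *Tfe3* was -0.012. Leaving out libraries gave log2 fold changes of -0.039 to 0.30 for *Ighm*, -0.052 to 0.30 for *Fabp4*, -0.19 to 0.44 for *Krt19*, -0.11 to 0.28 for *Lck*, -0.052 to 0.029 for *Lgals3*, -0.16 to 0.010 for *Tfeb* and -0.21 to 0.0076 for *Alb*. The causes were not tested. Genes near 0.5 CPM rest on 29.3 to 35.3 counts per library, and 2 libraries per group limit every test.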

Other observations

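Some listed genes missed the threshold in the fit over all 8 libraries and passed it with the 4 libraries alone, 20 in all. *Cd55*, an inhibitor of complement on the cell surface, was at 27.0 and 28.2 CPM with Veh and 17.9 and 16.2 CPM with CC, with edgeR adjusted p = 0.0861 over all 8 and 0.00678 over the 4. *Folr2*, a folate receptor of resident macrophages, was at 318 and 299 CPM with Veh and 247 and 240.3 CPM with CC, with 0.0784 and 0.00746. *P2ry14*, a receptor for UDP-glucose, was at 19.1 and 15.3 CPM with Veh and 7.30 and 8.59 CPM with CC, with 0.0936 and 0.00826. Both CC libraries were below both Veh libraries for these 3 genes, named after their values were seen.

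Several abundant genes differed more between replicates than between groups. *Oasl2*, an interferon-stimulated gene, was at 819.9 and 324 CPM with Veh and 329 and 838 CPM with CC, and *Gla*, the lysosomal alpha-galactosidase, was at 538 and 305 CPM with Veh and 338 and 544 CPM with CC. Each had 1 high and 1 low library in both groups, and neither was called. The cause was not tested.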
